A study of Mus musculus with 4 samples.

Results

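Cyclin-dependent kinase (CDK) inhibitors and the p53 pathway were described here through 9 genes, taken by symbol from the deposited count matrix of 19737 genes: the CDK inhibitors Cdkn1a, Cdkn1b, Cdkn2a, Cdkn2c and Cdkn2d, the p53 gene Trp53, its regulator Mdm2 and the p53 target genes Ccng1 and Bax. All 9 were found and all 9 passed the filter on low counts. The series measured RNA in single CD11b+ cells sorted from mouse brain by droplet 3′ sequencing, in which a unique molecular identifier (UMI) marks each captured RNA molecule. The 20 mice formed 5 groups of 4, and the cells were run in 4 pools, with every group represented by 1 mouse per pool. The question was how microglia respond to a TREM2-activating antibody that carries a brain transport vehicle, with and without amyloid pathology.

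WT;TfRmu/hu mice (WT below) received ATV:ISO or ATV:4D9. AppSAA;TfRmu/hu mice (AppSAA below) received ATV:ISO, 4D9 or ATV:4D9. Every dose was 10 mg/kg, and cells were taken 24 h later. All mice of all groups carried the TfRmu/hu knock-in, which puts the apical domain of human TfR into mouse TfR, and AppSAA mice were homozygous for it. The ATV, an antibody Fc that binds this human domain, needs it in order to cross into the brain. AppSAA mice were in addition homozygous for an App knock-in that gives amyloid plaques. 4D9 is a TREM2-activating antibody without the ATV, and ATV:4D9 is the same antibody with it. ATV:ISO, the isotype control with the ATV, is labelled ATV-DNP02, and this reading of the label comes from the design. All mice were recorded as male except the WT mouse given ATV:ISO in pool 4. AppSAA mice were 8 months old. WT;TfRmu/hu mice were 2 to 8 months old over all experiments and their age in this one is not clear, so genotype and age cannot be told apart in the comparisons between genotypes.

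CDK inhibitors are brakes on the cell cycle. The CIP/KIP members p21 (Cdkn1a) and p27 (Cdkn1b) bind cyclin-CDK complexes, whereas the INK4 members p16 (Cdkn2a), p18 (Cdkn2c) and p19Ink4d (Cdkn2d) bind CDK4 and CDK6 and so keep the retinoblastoma protein active. Cdkn2a also encodes p19Arf, which holds back MDM2, the ubiquitin ligase that degrades p53. The p53 protein is controlled mainly by its stability and in turn drives transcription of Cdkn1a, Mdm2, Ccng1 (cyclin G1) and Bax, which permeabilises mitochondria in apoptosis. Microglia seldom divide in the healthy adult brain and proliferate around amyloid and after TREM2 activation.

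In GENCODE coordinates (GRCm38), Cdkn1a lies at chr17:29090976-29100727 on the plus strand, Cdkn1b at chr6:134920401-134925513 on the plus strand and Trp53 at chr11:69580359-69591873 on the plus strand. On the minus strand are Cdkn2a at chr4:89274471-89294653, Cdkn2c at chr4:109660876-109667189, Cdkn2d at chr9:21288410-21291407, Mdm2 at chr10:117688875-117710758, Ccng1 at chr11:40748552-40755311 and Bax at chr7:45461697-45466898. The 3′ reads do not separate the products of Cdkn2a, since p16 and p19Arf share their last exons, so Cdkn2a values below are of both together.

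Promoter sequences are shown for Cdkn1a and Cdkn2a, which of the 9 genes had the largest fold change with ATV:4D9 in AppSAA and in WT mice, respectively. They come from RefSeq (GRCm38.p6), are written 5′ to 3′ on the gene's strand and stop before the first annotated exon. The Cdkn1a stretch is chr17:29090729-29090975. The Cdkn2a stretches lie before its upstream start, which gives p19Arf (chr4:89294654-89294869), and before its downstream start, which gives p16 (chr4:89282193-89282442). Capitals mark a match to a p53 response element pattern in Cdkn1a, with the bounds that the pattern gives, and the E2F motif TTTCCCGC at the upstream start of Cdkn2a.
Cdkn1a: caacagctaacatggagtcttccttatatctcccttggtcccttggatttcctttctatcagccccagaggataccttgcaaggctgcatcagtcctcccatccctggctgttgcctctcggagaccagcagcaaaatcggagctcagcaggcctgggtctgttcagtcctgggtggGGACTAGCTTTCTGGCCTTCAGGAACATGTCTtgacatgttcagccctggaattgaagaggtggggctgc
Cdkn2a upstream start: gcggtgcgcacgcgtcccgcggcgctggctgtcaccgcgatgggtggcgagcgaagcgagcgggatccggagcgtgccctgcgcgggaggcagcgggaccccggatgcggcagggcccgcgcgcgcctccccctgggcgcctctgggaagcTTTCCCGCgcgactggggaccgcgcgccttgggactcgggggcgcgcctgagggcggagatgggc
Cdkn2a downstream start: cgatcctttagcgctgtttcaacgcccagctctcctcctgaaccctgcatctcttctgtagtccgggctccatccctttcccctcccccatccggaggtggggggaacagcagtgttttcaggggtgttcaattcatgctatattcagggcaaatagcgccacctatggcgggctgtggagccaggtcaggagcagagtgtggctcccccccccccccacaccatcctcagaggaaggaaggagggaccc

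The windows searched ran from 250 bases before to 50 bases after each RefSeq start, on both strands, and gave 12 windows for the 9 genes. The p53 response element pattern, allowing up to 13 bases between its parts of 10 letters, had a match that began 73 bases before the upstream start of Cdkn1a. That was the only match among the 9 genes, and 0.0731% of 32851 RefSeq windows held one. An E2F motif (TTTCCCGC, TTTGGCGC or TTTCGCGC) was found in Cdkn2a alone, 99 bases before the upstream start, beside 1.84% of all windows. CCAAT, bound by NF-Y, was present in 7 of the 9 genes and in 37.4% of all windows. TTTGAA, a core of the cell cycle homology region, was present in Bax alone and in 17.9% of all windows. Counts here are per gene and shares per window, and some genes had more than 1 window, so counts and shares do not compare directly. These matches describe the letters of the windows and no binding was measured.

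The mice gave 2193 to 6126 cells each and 17150296 to 102446549 UMIs. The median cell held 13479 to 17290 UMIs in the 8 mice given ATV:4D9 and 6859 to 11552.5 in the 12 others. Levels below are therefore given as CPM, counts scaled to the total of each mouse times its TMM normalization factor (0.848 to 1.16). They are relative to the captured RNA of the mouse but not an exact share of it. Where the reading differs, UMIs per 1000 cells are given too. Markers of microglia (8 genes, among them P2ry12, Tmem119 and Csf1r) summed to 22482 to 32375 CPM per mouse. The marker sums of other cell types reached at most 61.4 CPM (oligodendrocytes), with neuronal markers at 0.341 to 1.54 and T or NK cell markers at 0 to 0.709 CPM. Endothelial markers (3 genes) moved with the groups, at 17.3 to 22.4 CPM in WT and 39.9 to 50.9 CPM in AppSAA mice with ATV:ISO and at 9.88 to 12.3 and 15.5 to 27.3 CPM with ATV:4D9. Monocyte markers (3 genes) were at 10.9 to 13.4 CPM in AppSAA mice given ATV:4D9 and at most at 9.16 CPM in the other groups, and oligodendrocyte markers (4 genes) had a median of 36.5 CPM in WT mice given ATV:4D9 and 55.2 CPM in those given ATV:ISO. The part of these cells in the results was not tested. Only 3 of 74758 cells had more UMIs from another type's markers than from the microglial ones. Of the cell barcodes, 543 occurred in more than 1 pool, and the pool number kept such cells apart.

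Levels were tested with edgeR on counts summed per mouse, with adjusted p-values over 14058 genes. This main fit had no term for the pool, although same-pool mice deviated alike from their group means (median correlation 0.673). Fits with the pool as a block are named as such. Group values are means ± SD of 4 mice, and "rose" or "fell" means an adjusted p under 0.05. Several comparisons share a group (the WT ATV:4D9 and genotype comparisons share WT ATV:ISO, and those in AppSAA mice share ATV:ISO or ATV:4D9), so they are not independent of each other. Because changes were common, each count of genes called is set beside the share of all tested genes called. With ATV:4D9 in WT mice 30.8% of genes rose and 32.5% fell, and in AppSAA mice 27.9% rose and 27.1% fell against ATV:ISO and 27.6% rose and 26.7% fell against 4D9. Between genotypes under ATV:ISO, 14.4% were higher and 13.7% lower in AppSAA mice. Groups without overlap were common too: the levels of ATV:4D9 and ATV:ISO mice did not overlap for 55.6% of all tested genes in WT mice and 47.6% in AppSAA mice, nor those of the genotypes under ATV:ISO for 27.4%.

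Of the 9 genes, 6 rose and 1 fell with ATV:4D9 in WT mice, and 6 rose and 1 fell in AppSAA mice. They were the same genes in both: Cdkn1a, Cdkn2a, Cdkn2c, Cdkn2d, Trp53 and Bax were higher, Cdkn1b was lower, and Mdm2 and Ccng1 did not pass the test. The median log2 fold change of the 9 genes was 0.47 in WT mice and 0.44 in AppSAA mice, beside -0.05 and -0.03 over all genes tested. AppSAA mice given ATV:ISO had more Cdkn1a, Cdkn2a, Cdkn2c and Bax than WT mice. 4D9 without the ATV changed none of the 9 (0% of all genes).

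**Figure D1:**
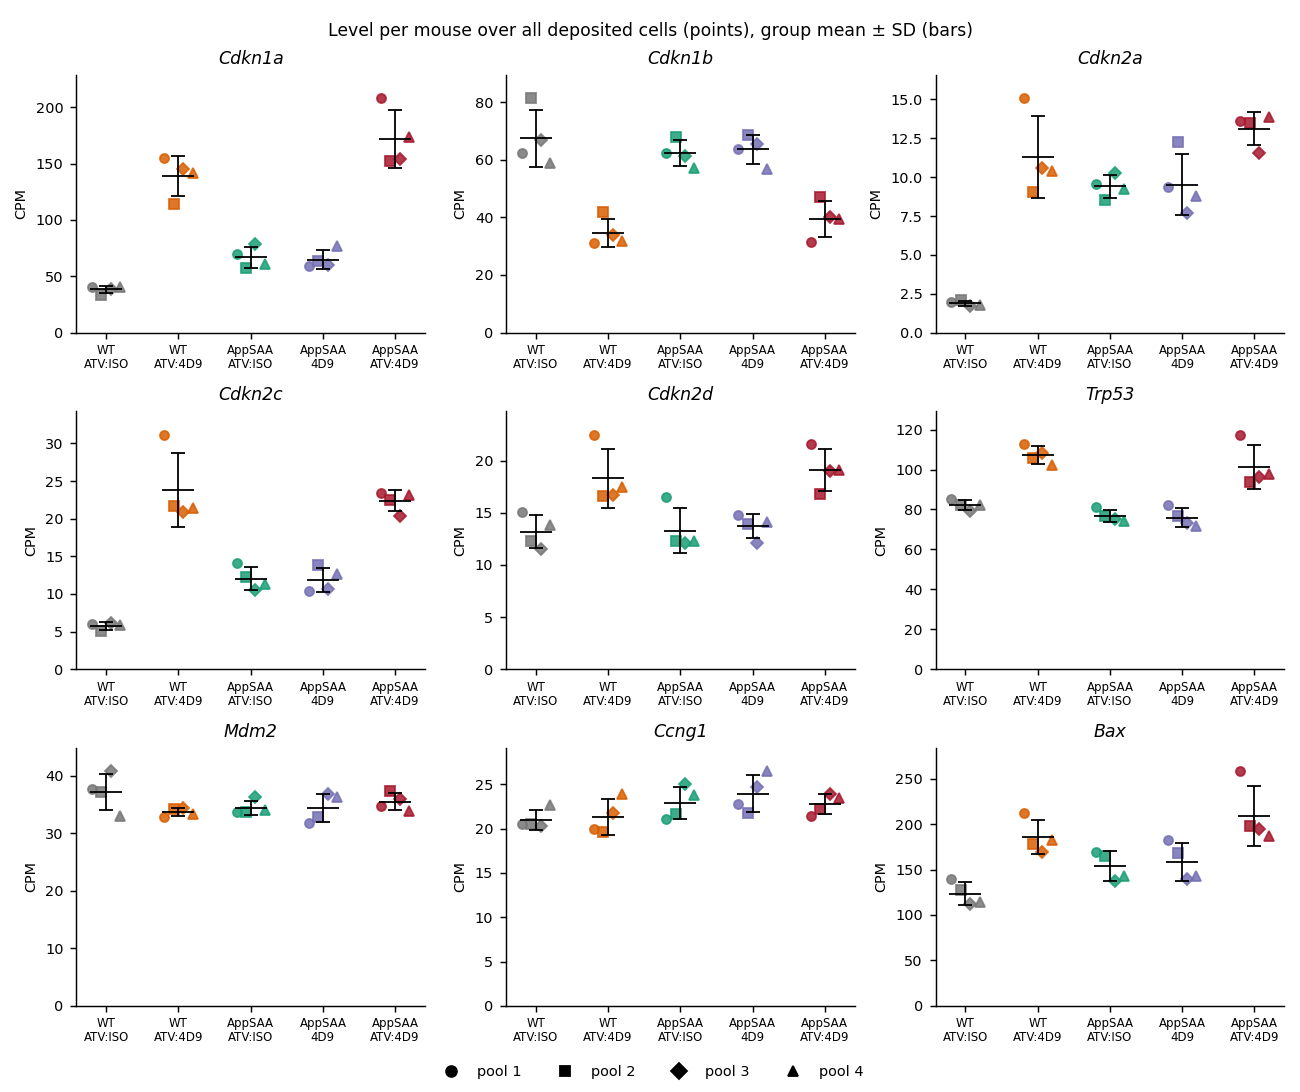
Level of each of the 9 genes in CPM (y axis, from 0) in the 20 mice by group (x axis). Symbols mark the pool and black bars the mean ± SD of 4 mice. Cdkn1a is highest under ATV:4D9 in both genotypes (139 and 172 CPM), Cdkn2a is low only in WT mice given ATV:ISO (1.89 CPM), and Mdm2 and Ccng1 sit at similar levels in all groups.

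Cdkn1a encodes p21, the main transcriptional output of p53 in arrest. In WT mice it stood at 40.2, 33.6, 38.9 and 40.6 CPM with ATV:ISO and at 155, 114, 146 and 142 CPM with ATV:4D9 (pools 1 to 4). In AppSAA mice it stood at 70.1, 57.5, 78.3 and 60.8 CPM with ATV:ISO, at 59.3, 63.1, 59.6 and 76.9 CPM with 4D9, and at 208, 152, 154 and 173 CPM with ATV:4D9. Every mouse given ATV:4D9 was above every mouse of the other groups. The rise was 3.63-fold in WT mice (log2 1.86 ± 0.13 SE, adjusted p = 1.26e-10) and 2.58-fold in AppSAA mice against ATV:ISO (log2 1.37 ± 0.12, adjusted p = 1.48e-08). Under ATV:ISO, all AppSAA mice were above all WT mice (1.74-fold, adjusted p = 5.26e-05).

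Cdkn1b encodes p27, which keeps resting cells out of the cycle and whose protein is removed by SKP2. It stood at 62.3, 81.4, 66.8 and 59.0 CPM in WT mice with ATV:ISO and at 31.2, 41.9, 33.8 and 31.6 CPM with ATV:4D9. In AppSAA mice it stood at 62.4, 68.0, 61.3 and 57 CPM with ATV:ISO, at 63.6, 68.6, 65.3 and 56.9 CPM with 4D9, and at 31.5, 46.9, 40.2 and 39.5 CPM with ATV:4D9. It was the only one of the 9 genes to fall, and the mice given ATV:4D9 did not overlap with any others. It fell 1.95-fold in WT mice (log2 -0.96 ± 0.12, adjusted p = 7.89e-07) and 1.57-fold in AppSAA mice (log2 -0.65 ± 0.12, adjusted p = 0.00011). This fall is relative to captured RNA. As UMIs per 1000 cells, Cdkn1b ranged from 513 to 736 with ATV:ISO and from 475 to 660 with ATV:4D9 in WT mice. In AppSAA mice it ranged from 609 to 764 and from 481 to 694, and the ranges overlap in both genotypes. Within every pool, though, the mouse given ATV:4D9 was the lower one in both genotypes.

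Cdkn2a rested on few counts, with 36 to 57 UMIs in each WT mouse given ATV:ISO and 583 to 1036 in each given ATV:4D9. Those WT mice stood at 1.99, 2.06, 1.73 and 1.76 CPM with ATV:ISO and at 15.1, 9.02, 10.6 and 10.4 CPM with ATV:4D9. AppSAA mice stood at 9.58, 8.51, 10.3 and 9.26 CPM with ATV:ISO, at 9.40, 12.2, 7.72 and 8.76 CPM with 4D9, and at 13.6, 13.5, 11.6 and 13.9 CPM with ATV:4D9. The WT mice given ATV:ISO lay below all 16 other mice. ATV:4D9 raised Cdkn2a 6.01-fold in WT mice (log2 2.59 ± 0.17, adjusted p = 7.37e-11) and 1.40-fold in AppSAA mice (log2 0.48 ± 0.14, adjusted p = 0.00615), the last with a size that depends on the clusters summed (log2 -0.26 to 1.65, given with the clusters below). Under ATV:ISO, AppSAA mice had 5.02-fold more than WT mice (log2 2.33 ± 0.17, adjusted p = 2.85e-09).

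Cdkn2c encodes p18Ink4c. It stood at 6.04, 5.02, 6.11 and 5.92 CPM in WT mice with ATV:ISO and at 31.2, 21.7, 20.9 and 21.4 CPM with ATV:4D9. In AppSAA mice it stood at 14.1, 12.2, 10.5 and 11.3 CPM with ATV:ISO, at 10.4, 13.8, 10.6 and 12.6 CPM with 4D9, and at 23.4, 22.5, 20.4 and 23.2 CPM with ATV:4D9. The order was WT with ATV:ISO, then AppSAA with ATV:ISO or 4D9, which overlap, then ATV:4D9 in either genotype, which overlap. The rise with ATV:4D9 was 4.13-fold in WT mice (log2 2.04 ± 0.14, adjusted p = 8.34e-11) and 1.87-fold in AppSAA mice (log2 0.90 ± 0.12, adjusted p = 4.48e-06), and AppSAA mice had 2.08-fold more than WT mice under ATV:ISO (adjusted p = 6.13e-06).

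Cdkn2d encodes p19Ink4d, whose mRNA oscillates through the cell cycle. It ranged from 11.5 to 15.1 CPM in WT mice with ATV:ISO and from 16.6 to 22.5 CPM with ATV:4D9, a 1.39-fold rise (log2 0.47 ± 0.12, adjusted p = 0.00211). In AppSAA mice the ranges were 12.1 to 16.6 CPM with ATV:ISO and 16.8 to 21.6 CPM with ATV:4D9 (1.44-fold, adjusted p = 0.000882). Both rises turned to falls without the cells of cluster 4 (log2 -0.35 in AppSAA mice, given with the clusters below). The genotypes under ATV:ISO overlapped (13.3 ± 2.17 and 13.2 ± 1.57 CPM, log2 difference 0.01, 95% interval -0.24 to 0.25).

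Trp53 mRNA ranged from 79.1 to 85.1 CPM in WT mice with ATV:ISO and from 102 to 113 CPM with ATV:4D9 (1.30-fold, log2 0.38 ± 0.07, adjusted p = 8.75e-05). In AppSAA mice it ranged from 74.3 to 81.2 CPM with ATV:ISO and from 93.6 to 117 CPM with ATV:4D9 (1.32-fold, adjusted p = 8.03e-05). Neither pair of ranges overlapped. Mdm2, whose mRNA is itself a p53 target, was at 37.2 ± 3.17 and 33.6 ± 0.744 CPM in WT mice (log2 -0.14, adjusted p = 0.0694, 0.0188 with the pool as a block and 0.0174 without the WT ATV:ISO mouse of pool 4) and at 34.4 ± 1.26 and 35.4 ± 1.5 CPM in AppSAA mice (log2 0.04, adjusted p = 0.601). Per 1000 cells, Mdm2 ranged from 310 to 417 UMIs in WT mice with ATV:ISO and from 498 to 646 with ATV:4D9, and in AppSAA mice from 328 to 452 and from 530 to 594, so the level in CPM and the number per cell give different readings.

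Ccng1 (cyclin G1) was at 21.0 ± 1.14 and 21.3 ± 2.00 CPM in WT mice with ATV:ISO and ATV:4D9, with a 95% interval of the log2 difference from -0.14 to 0.18. In AppSAA mice it was at 22.9 ± 1.83 and 22.8 ± 1.12 CPM (interval -0.17 to 0.14). Per 1000 cells its ranges were 169 to 246 and 304 to 463 UMIs in WT mice and 206 to 313 and 324 to 413 in AppSAA mice. Bax ranged from 112 to 139 CPM with ATV:ISO and from 170 to 212 CPM with ATV:4D9 in WT mice (1.51-fold, adjusted p = 0.000158), and from 137 to 170 and from 187 to 258 CPM in AppSAA mice (1.36-fold, adjusted p = 0.00273). Between genotypes under ATV:ISO, Bax was higher in the AppSAA mouse of all 4 pools (1.25-fold, adjusted p = 0.0437), but the groups overlapped, and the call was lost in 5 of the 8 fits that left out 1 of these mice (adjusted p up to 0.122). Ccng1 was also higher in the AppSAA mouse of all 4 pools, and passed only with the pool as a block (log2 0.13, adjusted p = 0.263, and 0.0317 with the block, which called 7166 of 14058 genes). Trp53 was lower in the AppSAA mouse of all 4 pools under ATV:ISO but did not pass (log2 -0.098, adjusted p = 0.325), nor did Cdkn1b (-0.12, 0.509) or Mdm2 (-0.11, 0.233). Per 1000 cells the AppSAA mouse was instead the higher one in all 4 pools for Trp53 (793 to 939 UMIs, and 700 to 895 in WT mice) and for Mdm2 (328 to 452, and 310 to 417 in WT mice), and in 3 of 4 pools for Cdkn1b.

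**Figure D2:**
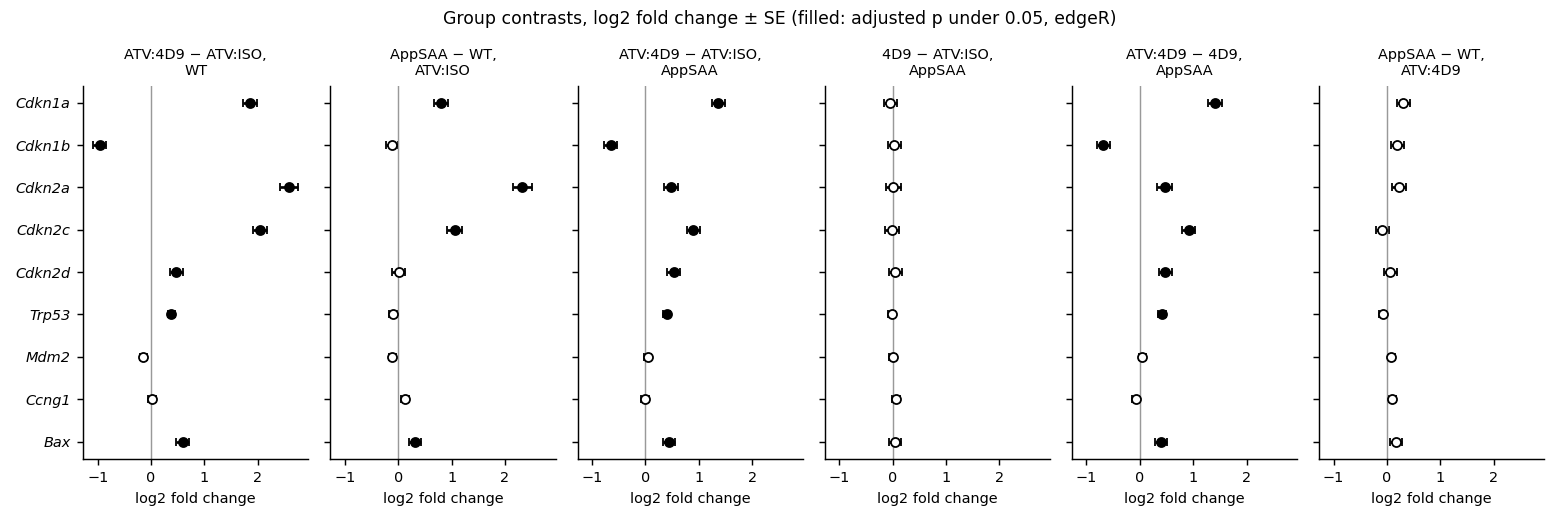
Log2 fold change ± SE (x axis) of the 9 genes (y axis) in 6 group contrasts, with filled points at an adjusted p under 0.05. The ATV:4D9 panels show the same 7 filled genes in WT and AppSAA mice, and the 4D9 panel has every point between -0.04 and 0.06.

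4D9 alone left all 9 genes within a log2 difference of -0.04 to 0.06 of ATV:ISO in AppSAA mice. None was called by edgeR, limma voom or DESeq2, and none reached an unadjusted p of 0.05 in any of them. Over all genes edgeR called 0, with 79 at an unadjusted p under 0.05, and DESeq2 called 1. The 95% intervals allow larger differences than these estimates: -0.28 to 0.20 for Cdkn1a and -0.26 to 0.29 for Cdkn2a. Against 4D9, ATV:4D9 raised Cdkn1a 2.65-fold (adjusted p = 9.98e-09), Cdkn2c 1.88-fold, Cdkn2a 1.38-fold (adjusted p = 0.00802, with overlapping ranges), Cdkn2d 1.39-fold (adjusted p = 0.00216, and 0.0688 in cells of 1000 to 25000 UMIs), Trp53 1.34-fold and Bax 1.32-fold, and Cdkn1b fell 1.61-fold. Mdm2 and Ccng1 did not pass (log2 0.04 and -0.07).

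The effect of ATV:4D9 differed between the genotypes for Cdkn2a and Cdkn2c, though the Cdkn2c difference no longer passed without clusters 2 and 4 (given with the clusters below). The log2 effect in AppSAA mice minus that in WT mice was -2.11 ± 0.22 for Cdkn2a (adjusted p = 7.99e-06, and -1.07 to -1.66 without cluster 1, cluster 4, or clusters 2 and 4, adjusted p up to 0.0118) and -1.14 ± 0.18 for Cdkn2c (adjusted p = 0.000412), beside 3.79% of all genes with a difference above 0 and 5.35% with one below. For Cdkn1a the difference was -0.49 (adjusted p = 0.0819, 0.0359 by DESeq2 and 0.011 with the pool as a block, and 0.0197 without the AppSAA ATV:4D9 mouse of pool 1), and for Cdkn1b it was 0.31 (adjusted p = 0.312, and 0.0199 with the block). It was 0.055 for Cdkn2d, 0.016 for Trp53, 0.19 for Mdm2, -0.033 for Ccng1 and -0.15 for Bax, and none of these passed (adjusted p 0.262 to 0.955). Under ATV:4D9 none of the 9 genes differed between the genotypes, with 7.84% of all genes higher and 3.98% lower in AppSAA mice. By unadjusted p, Cdkn1a alone of the 9 was under 0.05 there, beside 3228 of all 14058 genes. Cdkn1a stood at 172 ± 26.1 CPM in AppSAA and 139 ± 17.6 CPM in WT mice and was higher in the AppSAA mouse of all 4 pools. Its log2 difference was 0.31 (adjusted p = 0.116), and -0.074 without clusters 2 and 4, described below. With the pool as a block, Cdkn1a (adjusted p = 0.0165), Cdkn1b (0.0306) and Bax (0.0129) were higher in AppSAA mice, in a fit that called 4409 of 14058 genes there and 4284 for the difference of effects. Cdkn2a was at 13.1 CPM in AppSAA and 11.3 CPM in WT mice (log2 0.22, adjusted p = 0.379), and passed without the WT mouse of pool 1 (log2 0.39, adjusted p = 0.0407).

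The other genes of the pathway went in both directions. Counts for these lists stand beside 30.8% of all genes that rose and 32.5% that fell with ATV:4D9 in WT mice. In AppSAA mice these shares were 27.9% and 27.1% against ATV:ISO. Of 3 further CDK inhibitors, Cdkn3, a phosphatase of CDKs made in dividing cells, rose with ATV:4D9 (log2 2.49 in WT and 1.35 in AppSAA mice), whereas Cdkn1c (p57) and Cdkn2b (p15), the neighbour of Cdkn2a, fell (-2.09 and -0.72 in WT, -1.28 and -1.01 in AppSAA mice). Under ATV:ISO, AppSAA mice had more Cdkn3 (1.09) and Cdkn2b (0.82) and less Cdkn1c (-0.57) than WT mice. Of 25 other p53 target genes tested, 6 rose and 12 fell with ATV:4D9 in WT mice, with a median log2 change of -0.27. Pidd1, an activator of caspase-2, rose (1.95), and Rrm2b (p53-induced ribonucleotide reductase, -0.90), Trp53inp1 (-2.21) and the mTOR inhibitor Ddit4 (-2.07) fell. In AppSAA mice 5 rose (Pidd1 1.73, Aen 0.77, Fdxr 0.48, Pmaip1 0.40 and Tnfrsf10b 1.16) and 11 fell, among them Rrm2b (-0.60) and Perp (-1.69). Between genotypes under ATV:ISO, Phlda3 (3.04), Perp (1.87), Gadd45a (1.42), Tigar (0.81) and Pmaip1 (0.67) were higher in AppSAA mice, and Rrm2b (-0.29), Sesn1 (-0.43), Fdxr (-0.31), Ddb2 (-0.35) and Ddit4 (-0.63) were lower.

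Of 13 regulators of p53 tested, 7 rose and 3 fell with ATV:4D9 in WT mice. The checkpoint kinases Chek1 (log2 4.78) and Chek2 (1.05) and the damage sensor kinase Atm (0.77) rose. The p53 ubiquitin ligases Rchy1 (-0.68) and Cop1 (-0.21) and the MDM2 partner Mdm4 (-0.52) were those that fell. In AppSAA mice 6 rose (Chek1 3.84, Chek2 0.90, Atm 0.68) and Rchy1 fell (-0.54). Under ATV:ISO, Rpl5 (0.84), Rpl11 (0.74), both ribosomal proteins that bind MDM2, and Chek1 (0.49) were higher in AppSAA mice. Of 11 CDKs, CDK-activating subunits and factors that remove CDK inhibitors, 9 rose in each genotype: in WT mice Cks1b (3.33) and Skp2 (2.12), which direct p27 to degradation, Cdk1 (3.59) and Cdc25a (2.06), and in AppSAA mice Cks1b (2.48), Skp2 (1.67), Cdk1 (2.16) and Cdc25a (1.54). Cdk7 fell in both (-0.54 and -0.21). Under ATV:ISO, Cdk1 (1.26) and Cks1b (0.73) were higher and Ccnh (-0.23) lower in AppSAA mice.

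Of 15 genes of the BCL2 family and apoptosome, 6 rose and 5 fell in WT mice. Bcl2 (1.76), Cycs (cytochrome c, 1.54) and Bik (1.27) were among the first, and Bmf (-1.49), Casp9 (-0.62), Bid (-0.59), Bcl2l11 (-0.71) and Xiap (-0.52) were the others. In AppSAA mice Cycs (1.41) and Bak1 (0.44) rose and Bmf (-1.02), Bcl2l11 (-0.56), Bid (-0.37) and Casp9 (-0.31) fell. Under ATV:ISO, AppSAA mice had more Bcl2 (1.37), Bcl2l2 (0.71) and Bik (0.82) and less Bid (-0.48) and Bmf (-0.38), among others. Immediate early genes, which dissociation can raise, did not rise together: of 16, Ier3 (1.27) and Ier2 (0.36) rose and Jund (-0.96), Jun (-0.76), Egr2 (-0.63), Ier5 (-0.49) and Dusp1 (-0.40) fell in WT mice, and Ier3 (0.80) rose and Egr2 (-1.33), Jund (-0.83), Jun (-0.69) and Ier5 (-0.36) fell in AppSAA mice. Under ATV:ISO, Egr2 (0.73), Atf3 (0.60), Ier3 (0.62) and Ier2 (0.51) were higher and Fosl2 (-0.30) lower in AppSAA mice. No gene of any of these lists was called for 4D9 against ATV:ISO.

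The deposited annotation gave each cell a cluster number (6 clusters at the coarser resolution of 0.2, 9 at the finer of 0.4) and no name. Cycling markers summed to a median of 3565 CPM over mice in cluster 4 and to 156 to 777 CPM in the others, with cluster 2 the next. Cluster 1 was highest in plaque-associated markers (29968 CPM), cluster 5 in interferon-responsive markers (6768 CPM) and cluster 3 in immediate early genes (28283 CPM), and clusters 0 and 3 in microglial markers (29503 and 28109 CPM). Clusters were made from the expression in the same cells, so their levels are described without a test. Medians are over mice with at least 20 cells in the cluster.

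All 3 INK4 genes were highest in cycling-like cluster 4. Cdkn2c stood there at a median of 88.4 CPM (36.6 to 287 over 16 mice) and at 6.15 to 10.9 CPM in the 5 other clusters, and Cdkn2d at 69.4 CPM (27.4 to 185) against 7.45 to 13.8 CPM. These medians pool the groups, whose levels within cluster 4 differ (below), and with at least 50 cells per mouse, which leaves out most mice given ATV:ISO or 4D9 there, they were 57.7 CPM for Cdkn2c and 41.3 CPM for Cdkn2d. For these 2 genes no mouse's cluster 4 overlapped with the next cluster. At the finer resolution the level was in cluster 7, highest in G2 and mitosis markers (2703 CPM), rather than in finer cluster 4, highest in S phase markers (1845 CPM): 119 and 23.9 CPM for Cdkn2c, and 94.0 and 11.4 CPM for Cdkn2d. These medians are over unlike mice, 16 in finer cluster 7 and 8 in finer cluster 4, all of these given ATV:4D9. With at least 50 cells per mouse, finer cluster 7 stood at 96.1 CPM for Cdkn2c and 84.1 CPM for Cdkn2d. Cdkn2a stood at 38.4 CPM in cluster 4, at 16.7 in plaque-associated-like cluster 1, and at 1.55 and 1.45 CPM in clusters 3 and 0. Among finer clusters it was at 50.7 CPM in 7, 30.2 in 6 (highest in plaque-associated markers), 19.3 in 8, 13.1 in 4 and 9.47 in 3. The ranges of neighbouring clusters overlapped for Cdkn2a, and in clusters 0 and 3 its sums were 0 to 27 UMIs per mouse.

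Cdkn1a ran from 296 CPM in cluster 4 over 153 in cluster 5, 108 in cluster 2, 95.1 in cluster 1 and 58.0 in cluster 3 to 20.1 CPM in cluster 0, and each neighbour in this order overlapped with the next. At the finer resolution Cdkn1a was at 402 CPM in cluster 7 (444 CPM with at least 50 cells per mouse), again over other mice than in finer cluster 4. Finer cluster 4, at 107 CPM, was near finer clusters 5 (109), 6 (105) and 1 (93.9 CPM). Cdkn1b had another order, with cluster 3 first (76.8 CPM), then clusters 0 and 1 (61.3 and 60.8), cluster 4 (52.4), and clusters 5 and 2 last (37.1 and 35.4 CPM). With at least 50 cells per mouse cluster 1 (61.9) came before cluster 0 (60.3), and cluster 4 came just after cluster 5 (38.1 CPM), less than 1 CPM lower. Trp53 (67.5 to 110 CPM), Mdm2 (32.7 to 41.7), Ccng1 (20.7 to 26.9) and Bax (119 to 216) varied less between clusters, with the highest median in cluster 4 for Trp53 and Bax, though for Bax cluster 2 came first with at least 50 cells per mouse (203 and 193 CPM). Neighbouring clusters overlapped for all of these. In finer cluster 8, which the coarser clustering did not set apart, Bax (298 CPM) and Ccng1 (39.1 CPM) had their highest medians.

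**Figure D3:**
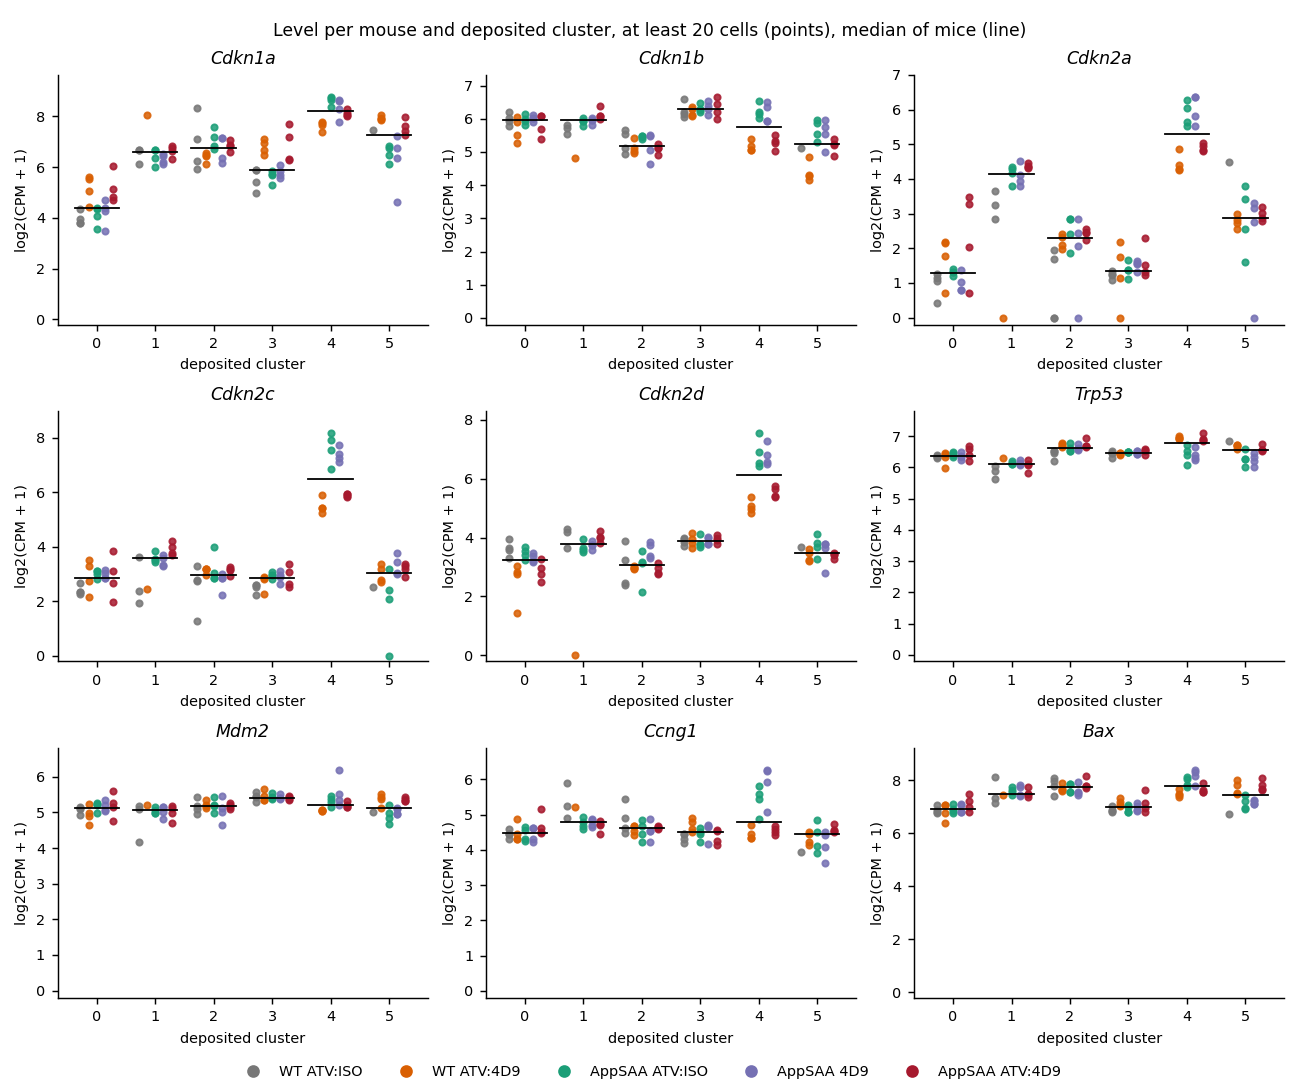
Level as log2(CPM + 1) (y axis) of the 9 genes in deposited clusters 0 to 5 (x axis), with 1 point for each mouse with at least 20 cells, coloured by group, and a line at the median of mice. Cdkn2c and Cdkn2d stand apart in cluster 4, Cdkn2a is high in clusters 4 and 1, and Mdm2 and Ccng1 have similar medians in all clusters, with single mice of cluster 4 higher (Ccng1 up to 76.3 CPM).

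A level summed per mouse combines the number of cells in each cluster with the level in them, and the cells that held the UMIs were not the same in all groups. In AppSAA mice given ATV:ISO, 77.4% of Cdkn2a UMIs lay in cluster 1 and 10.9% in cluster 4. With ATV:4D9, cluster 4 held 62.5% in AppSAA mice and 82.4% in WT mice, and cluster 1 held 14.2% and 0.0326% (1 of 3072 UMIs). Cluster 4 itself made up 0.779% to 1.21% of the cells of an AppSAA mouse given ATV:ISO (27 to 74 cells), 18.4% to 25.3% of one given ATV:4D9 (445 to 1438 cells), 36.3% to 45.7% of a WT mouse given ATV:4D9 (1357 to 1862 cells) and 0.243% to 0.435% of a WT mouse given ATV:ISO (6 to 13 cells). Cluster 1 made up 33.5% to 44.6% of the cells of an AppSAA mouse given ATV:ISO and 9.24% to 16.4% of one given ATV:4D9. The same shift held for Cdkn2c, with 29.5% of its UMIs in cluster 4 in AppSAA mice given ATV:ISO, 73.4% in those given ATV:4D9 and 82.7% in WT mice given ATV:4D9, and for Cdkn2d (16.4%, 67.9% and 78.0%). Cdkn1a was spread wider, with 11.1%, 46.5% and 62.6% in cluster 4 and 55.6% in cluster 1 of AppSAA mice given ATV:ISO.

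**Figure D4:**
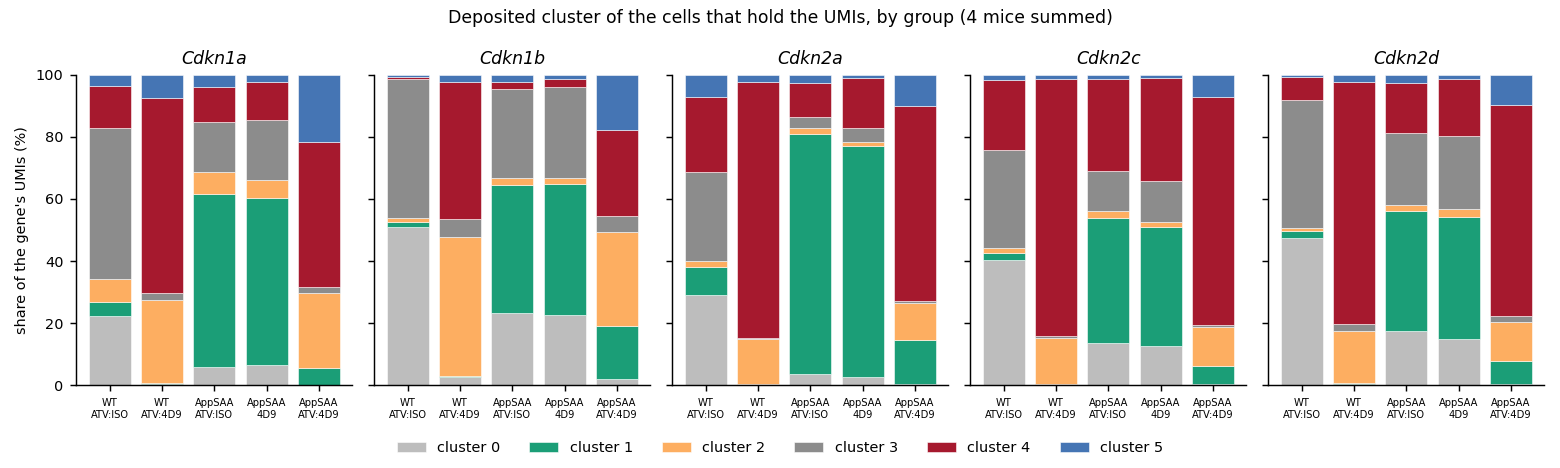
Share of each CDK inhibitor's UMIs in percent (y axis, from 0 to 100) held by the 6 deposited clusters (colours) in the 5 groups (x axis), with the 4 mice of a group summed. Cluster 4 holds most Cdkn2a, Cdkn2c and Cdkn2d UMIs in the ATV:4D9 groups, and cluster 1 holds most Cdkn2a UMIs in AppSAA mice given ATV:ISO or 4D9 (77.4% and 74.4%).

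Without the cells of cluster 4, a choice made after seeing the data, the INK4 genes no longer rose in AppSAA mice given ATV:4D9: Cdkn2a was at log2 -0.26 (adjusted p = 0.115), Cdkn2c at 0.02 (0.863) and Cdkn2d at -0.35 (0.0068), now lower. Of all genes, 26.2% rose and 23.1% fell in that fit, and 31.1% and 27.8% in WT mice. Cdkn1a rose (1.14, adjusted p = 1.48e-06), as did Trp53 (0.33) and Bax (0.52), and Cdkn1b fell (-0.59). In WT mice Cdkn2a (1.40) and Cdkn2c (0.77) still rose, and Cdkn2d fell (-0.69, adjusted p = 1.05e-05). Without both clusters 2 and 4, Trp53 was at 0.18 in either genotype, short of the threshold (adjusted p = 0.0514 in WT and 0.0529 in AppSAA mice). Under ATV:4D9, with clusters 2 and 4 left out, Cdkn2a was higher in AppSAA than in WT mice (1.39, adjusted p = 1.58e-05), as was Cdkn2c (0.52, adjusted p = 0.0219), beside 8.3% of all genes. The difference of the ATV:4D9 effects for Cdkn2c was then -0.44 (adjusted p = 0.422). Without cluster 1, also chosen after seeing the data, Cdkn2a under ATV:ISO was higher in AppSAA mice by 1.19 in place of 2.33 (adjusted p = 0.000372, beside 3.38% of all genes), and the Bax difference was 0.09 (adjusted p = 0.87). Cdkn2a then rose more with ATV:4D9 in AppSAA mice, by 1.65 (adjusted p = 9.27e-09), beside 31.8% of all genes, and the difference of effects was -1.07 (adjusted p = 0.0101).

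**Figure D5:**
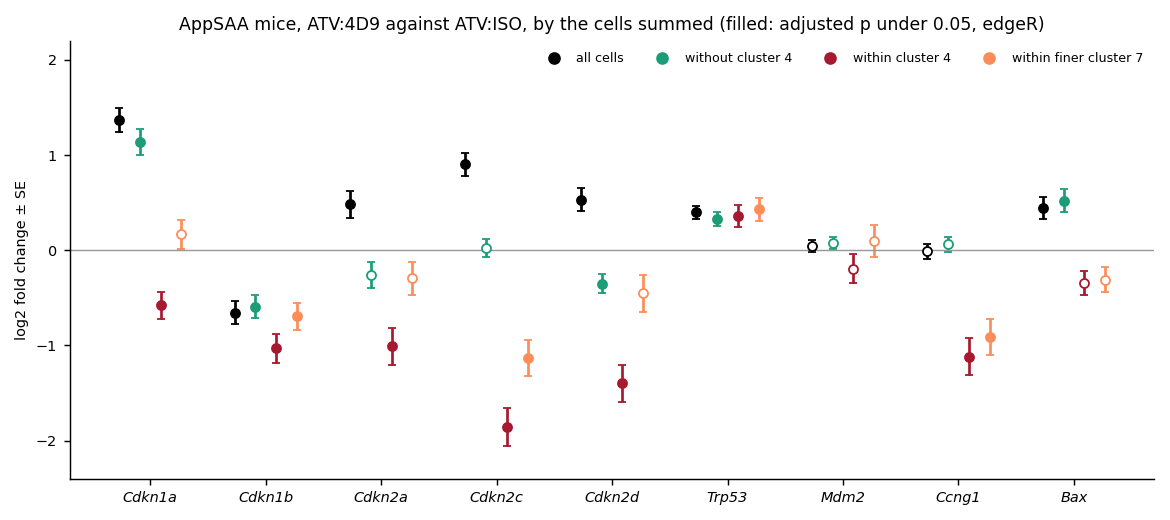
Log2 fold change ± SE (y axis) of the 9 genes (x axis) for ATV:4D9 against ATV:ISO in AppSAA mice, computed over all cells, without cluster 4, within cluster 4 and within finer cluster 7 (colours), with filled points at an adjusted p under 0.05. Cdkn2c changes from 0.90 over all cells to 0.02 without cluster 4 and -1.85 within it, whereas Trp53 is above 0 in all 4.

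Within clusters, ATV:4D9 was compared with ATV:ISO in sums of at least 20 cells and 3 mice per group, with a fit per cluster. Cluster 4 could be compared in AppSAA mice only, since WT mice given ATV:ISO had too few such cells. There, 6 of the 9 genes fell (11.5% of all genes) and 1 rose (13% of all genes). Cdkn2c was at 56.6 ± 2.22 CPM with ATV:4D9 and 214 ± 80.2 with ATV:ISO (log2 -1.85, adjusted p = 4.09e-07), Cdkn2d at 45.0 ± 6.02 and 125 ± 51.0 (-1.40, 1.2e-05) and Cdkn2a at 28.2 ± 1.98 and 60.8 ± 16.8 (-1.01, 0.000438). Cdkn1b (-1.03), Ccng1 (-1.12) and Cdkn1a (-0.58, 271 ± 20.6 and 408 ± 51.3 CPM, adjusted p = 0.00409) fell too. Trp53 rose (0.36, 117 ± 8.32 and 88.5 ± 14.5 CPM, adjusted p = 0.0228), a call lost in 4 of 8 fits without 1 mouse. Bax was at -0.34 (adjusted p = 0.0526, 0.00248 with the pool as a block, which called 30.1% of all genes, and 0.0187 and 0.0460 without the ATV:4D9 mouse of pool 1 or the ATV:ISO mouse of pool 4).

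The cells of cluster 4 differed in phase between these groups. In AppSAA mice given ATV:ISO, 79.7% to 88.7% of them lay in finer cluster 7, and 28.9% to 36.6% in those given ATV:4D9. Summed S phase markers in cluster 4 had a median of 945 CPM with ATV:ISO and 2061 with ATV:4D9, and G2 and mitosis markers 3572 and 1366 CPM. Within finer cluster 7 alone (22 to 60 cells per ATV:ISO mouse), Cdkn2c (-1.13, adjusted p = 0.000124), Cdkn1b (-0.69) and Ccng1 (-0.91) fell, beside 10.4% of all genes, and Trp53 rose (0.43), beside 12.3%. Cdkn2a (-0.30, adjusted p = 0.217) and Cdkn2d (-0.45, adjusted p = 0.0977) did not pass, and Cdkn1a turned to 0.17 (adjusted p = 0.47). What remains of phase within finer cluster 7 was not tested.

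Against 4D9, with 11.5% of all genes higher and 10.5% lower in cluster 4, the falls were of like size: Cdkn2c -1.61, Ccng1 -1.49, Cdkn2d -1.30, Cdkn2a -1.22 and Cdkn1b -1.05, with Bax (-0.59) and Mdm2 (-0.55) also lower, the last only with the 4D9 mouse of pool 4 (-0.25 and adjusted p = 0.242 without it). Trp53 was higher (0.44). Cdkn1a was at -0.34 (adjusted p = 0.0962, 0.0481 with the block, which called 28.4% of all genes, and 0.00742 without the 4D9 mouse of pool 3), and within finer cluster 7 at 0.44 (adjusted p = 0.0406). Between genotypes under ATV:4D9, Cdkn1a was higher in cluster 4 of AppSAA mice (271 ± 20.6 and 192 ± 22.0 CPM, log2 0.50, adjusted p = 0.0473), beside 2.49% of all genes, but passed in none of the 8 fits without 1 mouse (adjusted p 0.0599 to 0.267). With the pool as a block, Cdkn2a (0.46, adjusted p = 0.0021), Cdkn2c (0.39, 0.0402) and Cdkn2d (0.49, 0.00173) were higher in AppSAA mice there too, beside 9.79% of all genes called in that fit. Without the block, Cdkn2a passed there only without the WT mouse of pool 1 (0.61, adjusted p = 0.0131, and 0.12 with all mice).

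Clusters 0 and 3 held few cells of mice given ATV:4D9. In WT mice there were 60 to 186 and 104 to 242 per mouse, beside 1255 to 1897 and 799 to 978 with ATV:ISO. In AppSAA mice there were 37 to 195 and 68 to 268, beside 1070 to 1930 and 830 to 1448. Comparisons in these clusters thus cover only a small part of the ATV:4D9 cells. Outside cluster 4, Cdkn1a rose in clusters 3, 0 and 5. In cluster 3 it went from 49.0 ± 14 to 119 ± 23.8 CPM in WT mice (log2 1.28, adjusted p = 0.000873), beside 4.15% of all genes. In the same cluster of AppSAA mice it rose from 51.2 ± 7.98 to 134 ± 66.1 CPM (1.36, adjusted p = 0.000752), beside 3.37%, and against 4D9 by 1.20 (adjusted p = 0.0033), beside 2.75%. In cluster 0 it rose in WT mice from 16.9 ± 3.37 to 42.2 ± 14.7 CPM (1.39, adjusted p = 0.00558), beside 1.02%, but not without the ATV:4D9 mouse of pool 2 (adjusted p = 0.061). With the block it rose in cluster 0 of AppSAA mice as well (0.97, adjusted p = 0.019, and 0.221 without the block). No INK4 gene passed in clusters 0 and 3 without the block when all mice were used. With the block, Cdkn2c was higher (0.87, adjusted p = 0.0445) and Cdkn2d lower (-0.99, 0.0134) with ATV:4D9 in cluster 0 of WT mice, and Cdkn2c was higher in AppSAA than in WT mice under ATV:ISO in that cluster (0.73, 0.000589, and 0.0286 with no block and without the WT ATV:ISO mouse of pool 1). In cluster 3, Bax rose with the block in WT (0.29, adjusted p = 0.00262) and AppSAA mice (0.23, 0.0352), and Ccng1 rose in WT mice (0.43, 0.0278). Of all genes, the block called 8.96% in WT and 5.27% in AppSAA mice with ATV:4D9 and 4.61% between genotypes in cluster 0, and 17.5% in WT and 12.6% in AppSAA mice with ATV:4D9 in cluster 3.

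Cluster 5 held 690 to 1071 cells per AppSAA mouse with ATV:4D9, 46 to 233 with ATV:ISO and 37 to 62 with 4D9. Cycling markers in it ran from 165 to 1346 CPM over 17 mice of all groups, and their part in the results was not tested. In this interferon-responsive-like cluster of AppSAA mice, Cdkn1a (0.94, adjusted p = 0.00316) and Bax (0.59, 0.00177) rose with ATV:4D9 against ATV:ISO, beside 15.7% of all genes, and Cdkn1b fell (-0.64, 0.00464), beside 14%. Against 4D9 the changes were 0.92, 0.53 and -0.58, beside 9.57% higher and 6.72% lower, and that of Cdkn1b was lost in 6 of 8 fits without 1 mouse (adjusted p up to 0.225). Cdkn1b was also higher in this cluster in AppSAA than in WT mice given ATV:4D9 (33.0 ± 5.24 and 19.2 ± 4.81 CPM, 0.79, adjusted p = 0.00334), beside 3.87%. In cluster 2, Cdkn1b was lower with ATV:4D9 than with ATV:ISO (-0.46, adjusted p = 0.0376), beside 6.3% of all genes, and Cdkn2d lower than with 4D9 (-0.84, adjusted p = 0.0165), beside 6.09%. The first was lost in 5 of 8 fits without 1 mouse (adjusted p up to 0.123) and the other without the 4D9 mouse of pool 4 (0.127). Cdkn1a had the opposite sign in cluster 2 of WT mice, at 80.6 ± 9.79 CPM with ATV:4D9 and 160 ± 131 CPM with ATV:ISO (log2 -0.94, adjusted p = 0.0777, groups overlapping), where each ATV:ISO mouse had 23 to 42 cells. It passed without the ATV:ISO mouse of pool 1 (-1.21, adjusted p = 0.0308) or of pool 4 (-1.22, 0.0347). Without the AppSAA ATV:ISO mouse of pool 3, Cdkn2c (1.27, adjusted p = 0.0438) and Mdm2 (0.47, 0.0357) were higher with ATV:4D9 in cluster 5, and neither passed with all mice (0.222 and 0.0691).

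In cluster 1, where Cdkn2a and plaque-associated markers were high, none of the 9 genes was called in any contrast by edgeR. In the contrasts other than 4D9 against ATV:ISO, which had 0, 2 to 4 were at an unadjusted p under 0.05. The share of all genes at that unadjusted level is not given, so these counts are not read as a result about the 9 genes. By adjusted p, the fit in cluster 1 called 1.21% of all genes between genotypes under ATV:ISO. In AppSAA mice it called 1.51% with ATV:4D9 against ATV:ISO and 1.76% against 4D9. No other tool was run within clusters. Cdkn2a in cluster 1 was at medians of 17.9 CPM (13 to 19.3) with ATV:ISO, 15.3 CPM (12.8 to 22.1) with 4D9 and 19.6 CPM (18.9 to 21.1) with ATV:4D9 in AppSAA mice, which overlap. With the block, Cdkn1b (0.25, adjusted p = 0.00753) and Cdkn2d (0.36, 0.0191) were higher with ATV:4D9 than with ATV:ISO, and Cdkn1b higher than with 4D9 (0.23, 0.019), beside 7.77% and 6.73% of all genes called with the block.

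By Pearson correlation of log2(CPM + 1) over the 20 mice, which share the groups and pools, the genes most like each of the 9 were Cd180 (0.984) and Tlr2 (0.979) for Cdkn1a, Clk4 (0.983) and Dcaf8 (0.980) for Cdkn1b, Fxyd5 (0.984) and Gusb (0.971) for Cdkn2a, Cdkn3 (0.986) and Coq7 (0.973) for Cdkn2c, and Marcksl1 (0.956) and Syngr2 (0.955) for Cdkn2d. For Bax they were Arpc1b (0.994) and Smdt1 (0.992), and Wdr77 (0.988) and Raly (0.988) were among those nearest to Trp53. Ccng1 was nearest to Sorbs3 (0.897) and Mdm2 to Gm13523 (0.743), so these 2 genes had the least close neighbours.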

How the data were processed

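Single-cell RNA sequencing of sorted CD11b+ cells from 20 mice was analysed. Per the labels and methods, the authors aligned reads to mm10 (Cell Ranger 6.1.1), used CellPlex tags to tell the mice of a pool apart, and clustered the integrated cells in Seurat. The deposited matrix holds UMI counts per gene and cell, not normalized, and the deposited annotation gives each cell's mouse, group, pool, cluster and mitochondrial percent. Counts of all 74758 cells matched the annotated totals, and all cells were kept. No doublet caller was run, and what the authors removed is not given in the sources used here.

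Counts were added up over all cells of a mouse, or over its cells in 1 cluster (at least 20 cells, and 3 mice per group). edgeR 4.0.16 in R 4.3.3 (filterByExpr, TMM, quasi-likelihood test, Benjamini-Hochberg over all genes tested, threshold 0.05) was fitted to all 5 groups, and CPM are on TMM-scaled library sizes. Standard errors are the log2 fold change over the square root of F. The study used limma voom on such sums, and limma 3.58.1 and DESeq2 1.42.0 were alternatives. The fits were tested on simulated data. Pool numbers pair the mice, since the labels give each pool 1 mouse of every group, and the deviations of same-pool mice from their group means had correlations of 0.276 to 0.807 (40 pairs, median -0.343 for mice of different pools).

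The 9 genes and the gene lists were chosen with earlier results of these data known. All 9 are covered in every comparison over all cells, by name or as a set, with up to 4 genes of each list by adjusted p and any gene that a count of 5 or fewer refers to. Whether mice of a group came from separate litters is not given. A few genes that this rule would name are not reported here.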

Additional observations from a re-analysis of the deposited data

Results flagged for a closer look

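In 6 of 45 combinations of gene and group, 1 mouse stood apart from the other 3 by Dixon's test at 95%, which chance gives in about 1 of 20. In the WT mouse of pool 1 given ATV:4D9, Cdkn2c was at 31.2 CPM and Cdkn2d at 22.5 CPM, above the others of its group. The AppSAA mouse of pool 1 given ATV:ISO was high in Cdkn2d (16.6 CPM), and that of pool 3 in Mdm2 (36.2 CPM). Ccng1 was high, at 22.7 CPM, in the WT mouse of pool 4 given ATV:ISO, the mouse recorded as female. Bax was at 258 CPM in the AppSAA mouse of pool 1 given ATV:4D9.

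The effect of ATV:4D9 differed between the genotypes, by a test of the difference itself, for Cdkn2a (log2 -2.11 in AppSAA minus WT mice, adjusted p = 7.99e-06, and -1.07 without cluster 1) and Cdkn2c (-1.14, adjusted p = 0.000412). Both genes were higher with ATV:4D9 in all 4 pools of each genotype. The Cdkn2c difference was smaller and no longer passed without clusters 2 and 4.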

How the results depend on the processing

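Another tool, normalization, filter or set of groups changed few calls of the 9 genes, and the cells summed changed most. Leaving out clusters 2 and 4, which were highest in cycling markers, turned Cdkn2d to log2 -0.22 in WT and -0.036 in AppSAA mice (-0.043 against 4D9), Mdm2 in WT mice to 0.12 and Cdkn1a between genotypes under ATV:4D9 to -0.074. Leaving out cluster 4 alone, added after seeing the data, turned Cdkn2d to -0.69, -0.35 and -0.37 in those contrasts, Mdm2 in WT mice to 0.020, and Cdkn2a in AppSAA mice to -0.26 against ATV:ISO and -0.20 against 4D9. Of the 9 genes, 2 then rose without clusters 2 and 4, or 3 without cluster 4, and 2 fell without cluster 4 in AppSAA mice against ATV:ISO, where 19.6% (clusters 2 and 4) and 26.2% (cluster 4) of all genes rose and 23.1% fell without cluster 4. Against 4D9, 3 rose under either choice (19.1% and 26% of all genes) and 2 fell without cluster 4 (22.7%). In WT mice 2 in place of 1 fell without cluster 4 (27.8% of all genes), with a minimum of 5 CPM in 4 mice, or with the pool block (1 to 2 without 1 mouse). Between genotypes under ATV:4D9, 2 were higher without clusters 2 and 4 (8.3% of all genes) or without cluster 4 (8.12%), and 0 to 1 without 1 mouse. Shares of all genes by direction are not given for the fits with the CPM minimum, the block or 1 mouse left out. Those counts are not read as a result about the 9 genes.

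Mice were paired by pool. With the pool as a replicate block, 3 of the 9 genes in place of 0 were higher in AppSAA mice under ATV:4D9. A difference of the ATV:4D9 effects (AppSAA minus WT) above 0 was called for 1 in place of 0. This was Cdkn1b, whose fall was smaller in AppSAA mice (log2 -0.65 and -0.96 in WT mice without the block). The higher calls within clusters numbered 24 in place of 12, where the block raised the genes called too (in WT mice with ATV:4D9 from 1.47% to 8.96% in cluster 0 and from 6.17% to 17.5% in cluster 3). Of the pathway genes, 21 were lower in AppSAA mice under ATV:ISO with the block (7 with RLE size factors), and 16 higher and 14 lower under ATV:4D9. For 13 of them the difference of the ATV:4D9 effects was called above 0 (3 with RLE). The shares of all genes by direction in these fits are not given, so the counts are not read as a result about these lists. Over all genes, the block raised the calls between genotypes from 3960 to 7166 under ATV:ISO and from 1661 to 4409 under ATV:4D9 (1103 without the AppSAA mouse of pool 3), and of differing effects from 1285 to 4284. Leaving out clusters 2 and 4 lowered those with ATV:4D9 from 8898 to 5914 in WT and from 7742 to 4653 in AppSAA mice (7633 to 4559 against 4D9) and differing effects to 169. Leaving out cluster 1 gave 490 and 978 between genotypes and 303 differing effects. Within cluster 4, finer cluster 7 in its place left 3 genes lower and turned Cdkn1a to 0.17. A minimum of 50 cells left 3 lower calls within clusters, since cluster 4 then had too few mice given ATV:ISO or 4D9. The block changed no call of the 9 genes other than those given with the results. Depth limits Cdkn2a most, with 36 to 57 UMIs per WT mouse given ATV:ISO.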
